A study of Mus musculus with 18 samples.

Results

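The 5 libraries described here are the cultured glioma cell lines of the study, 2 grown from Ras-driven mouse brain tumours and 3 grown from PDGFB-driven ones, out of 18 libraries in the whole series. They were chosen by their labels, and all 35842 gene entries of their count table with an intact name entered, of 35869 in all. The Ras tumours of the study were driven by HRasV12, an active form of the GTPase H-Ras, together with a dominant negative p53. The PDGF tumours were driven by PDGFB, a growth factor that signals through the PDGF receptors. All 5 lines carry the strain label Boy/J and the treatment label untreated, and no line without a driver was compared. The Ras lines grew without serum in DMEM/F12 with EGF and FGF at 20 ng/mL. The PDGF lines grew in a Neurobasal and DMEM/F12 mixture with B27 and N2 supplements and with EGF, FGF, PDGF-BB and PDGF-AA at 20 ng/mL. The medium therefore changed together with the driver, and the effects of driver and medium cannot be told apart here. Passage number, the cell of origin, the promoter of each transgene, the p53 state of the PDGF lines and whether each line is 1 clone or 1 tumour are not given in the sources used here, so a p-value measures only the spread between these lines.

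H-Ras and the PDGF receptors feed into the same kinase cascade, in which Ras activates RAF, MEK and ERK, and in which Sprouty and DUSP proteins act as brakes. PDGF is also the mitogen of oligodendrocyte precursor cells, the glial cells marked by Pdgfra, NG2 (Cspg4) and Sox10, and gliomas with high PDGF signalling are known for a precursor-like, proneural expression pattern. Loss of that pattern with gain of matrix, adhesion and inflammatory genes is known in glioma as a mesenchymal state.

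The lines held 31886816 to 35802099 counts of bulk RNA under intact gene names. Levels below are CPM (counts scaled to a common library size) after TMM scaling, in the order Ras lines 1 and 2 against PDGF lines 1, 2 and 3. A fold is the log2 fold of the Ras lines over the PDGF lines with its standard error (SE). The lines of a group were not all alike. Over 17475 genes the log2 levels of Ras line 2 had a Pearson r of 0.864 with Ras line 1, against 0.935, 0.881 and 0.915 with PDGF lines 1, 2 and 3, so Ras line 2 was nearer to every PDGF line than to the other Ras line. Ras line 1 had r between 0.774 and 0.798 with the PDGF lines, which had 0.927 to 0.966 among themselves. These r values run across genes, which are not independent replicates. Xist was the female mark in Ras line 1 and PDGF line 1, with 1144 and 1240.2 CPM, and Ddx3y the male mark in the other 3 lines, with 29.9 to 63.6 CPM, so sex crossed the drivers. PDGF line 3 held macrophage transcripts: the 12 macrophage markers summed to 145 CPM there and to 4.61 to 10.3 CPM in the other 4 lines, with C1qa at 18.96 CPM in PDGF line 3 and at most 0.231 CPM elsewhere.

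The driver genes followed the labels. Pdgfb (chr15:79995874-80014977, GRCm38) stood at 2.99 and 0.0922 against 149, 227 and 138 CPM, a fold of -6.79 (SE 1.53), and the groups were far apart although the 2 Ras lines also differed from each other. Hras (chr7:141189105-141194005) stood at 72.5 and 165 against 51.7, 47.0 and 53.8 CPM, a fold of 1.22 (SE 0.37), and both Ras lines lay above the PDGF lines. Ras line 2 held the larger Hras excess, and the fold without that line was 0.49. Whether reads of the transgenes count toward these mouse genes is not given in the sources used here. Trp53 was at 247 and 285 against 291, 364 and 279.9 CPM, and the groups overlapped for Nras.

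Pdgfra, the receptor that marks precursor cells, was lower in both Ras lines at 515 and 68.3 against 1232, 1607 and 1473 CPM, a fold of -2.30 (SE 0.89). Pdgfrb, the receptor of pericytes and fibroblasts, was at 131 and 0.461 against 0.173, 0.0303 and 0.0592 CPM. Its high level was thus a property of Ras line 1, and Ras line 2 held only a trace. Pdgfa, a ligand of PDGFRα, stood at 29.2 and 46.7 against 26.1, 26.0 and 30.5 CPM, and its groups overlapped. Of the 20 Ras genes and regulators, 3 were higher and 2 lower in both Ras lines than in all PDGF lines. Both shares were below the 17.9% and 20.6% of all genes tested. The exchange factor Rasgrf1, which loads Ras with GTP, had the smallest p of the list. Rasgrf1 stood at 0.302 and 0.369 against 15.3, 0.970 and 11.7 CPM, with PDGF line 2 nearly as low as the Ras lines. The GTPase-activating genes Rasa1 and Nf1, which switch Ras off, had folds of 0.68 (SE 0.21) and -0.40 (SE 0.16).

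No gene passed the test across the whole table: edgeR called 0 of 17475 genes (0% called) at an adjusted p under 0.05, and the smallest adjusted p was 0.120. At an unadjusted p under 0.05 there were 1538 higher (8.80%) and 1304 lower (7.46%), and DESeq2 called 1021 higher (5.28%) and 1026 lower (5.30%) of its 19344. Without Ras line 2 edgeR called 2111 genes, a fit that takes the spread of the PDGF lines for the single Ras line left. Members of gene lists are therefore described by whether both Ras lines lay above or below all 3 PDGF lines. Of all genes tested, 17.9% lay above and 20.6% below in that way, 38.6% together, and the median fold was 0.01. The list counts are read against those shares and include no called gene by edgeR. They cover only members that passed a filter on low counts, which a gene can pass through 2 lines of either group.

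Sox10, the transcription factor that defines the oligodendrocyte lineage (chr15:79154908-79165240), was all but absent from both Ras lines. It stood at 0.996 and 0.523 against 789.6, 1123 and 670.3 CPM, a fold of -10.14 (SE 0.59) with an adjusted p of 0.120 by edgeR. The 2 Ras lines were close together here relative to their distance from the PDGF lines. Tnr, the matrix protein tenascin-R made by precursors and oligodendrocytes, stood at 46.1 and 60.5 against 680.0, 1010.2 and 669 CPM (-3.88 (SE 0.33)). Nr4a1, an immediate-early nuclear receptor, stood at 16.4 and 20.2 against 161, 159 and 131 CPM (-3.04 (SE 0.23)). Fa2h, which hydroxylates myelin lipids, stood at 0.151 and 0.123 against 10.3, 30.8 and 21.4 CPM (-7.21 (SE 0.76)). Each of these genes was thus several times lower in both Ras lines than in the lowest PDGF line. Gjb1, the connexin of oligodendrocytes, had no count in either Ras line and stood at 6.35, 27.8 and 21.9 CPM in the PDGF lines. Set against a floor of 3 counts per library, it was at least 204-fold lower.

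Adamts4, a secreted protease that cleaves aggrecan, brevican and versican (chr1:171250421-171260637), was the gene with the smallest p among those higher in the Ras lines. It stood at 108 and 103 against 12.5, 13.2 and 10.6 CPM, a fold of 3.12 (SE 0.19) with an adjusted p of 0.120 by edgeR. Kitl, the ligand of the receptor KIT (chr10:100015630-100100416), stood at 132 and 101 against 5.63, 7.33 and 4.86 CPM, a fold of 4.29 (SE 0.28) with the same adjusted p. Both genes had nearly equal levels in the 2 Ras lines and narrow ranges in the PDGF lines. The adhesion receptor gene Adgrg6 stood at 47.7 and 45.6 against 4.88, 4.12 and 3.44 CPM (3.49 (SE 0.26)), and the small GTPase gene Rap2c at 269.7 and 219.8 against 64.6, 66.5 and 63.0 CPM (1.92 (SE 0.17)). Pcolce, which enhances the trimming of procollagens, stood at 166 and 54.9 against 3.66, 4.12 and 5.48 CPM (4.64 (SE 0.55)). Angpt2, a ligand of the endothelial receptor TIE2, stood at 229 and 166 against 3.38, 11.4 and 2.19 CPM (5.12 (SE 0.83)), but its whole span lies inside Mcph1 on the other strand. The strand setting of the counting is not given in the sources used here, so the counts of Angpt2 and Adamts4 may include reads from the other strand. The same holds for other genes named below whose spans overlap a gene on the other strand, among them Gad1, Col18a1, Gpr17, Timp1 and Fosl1.

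**Figure D1:**
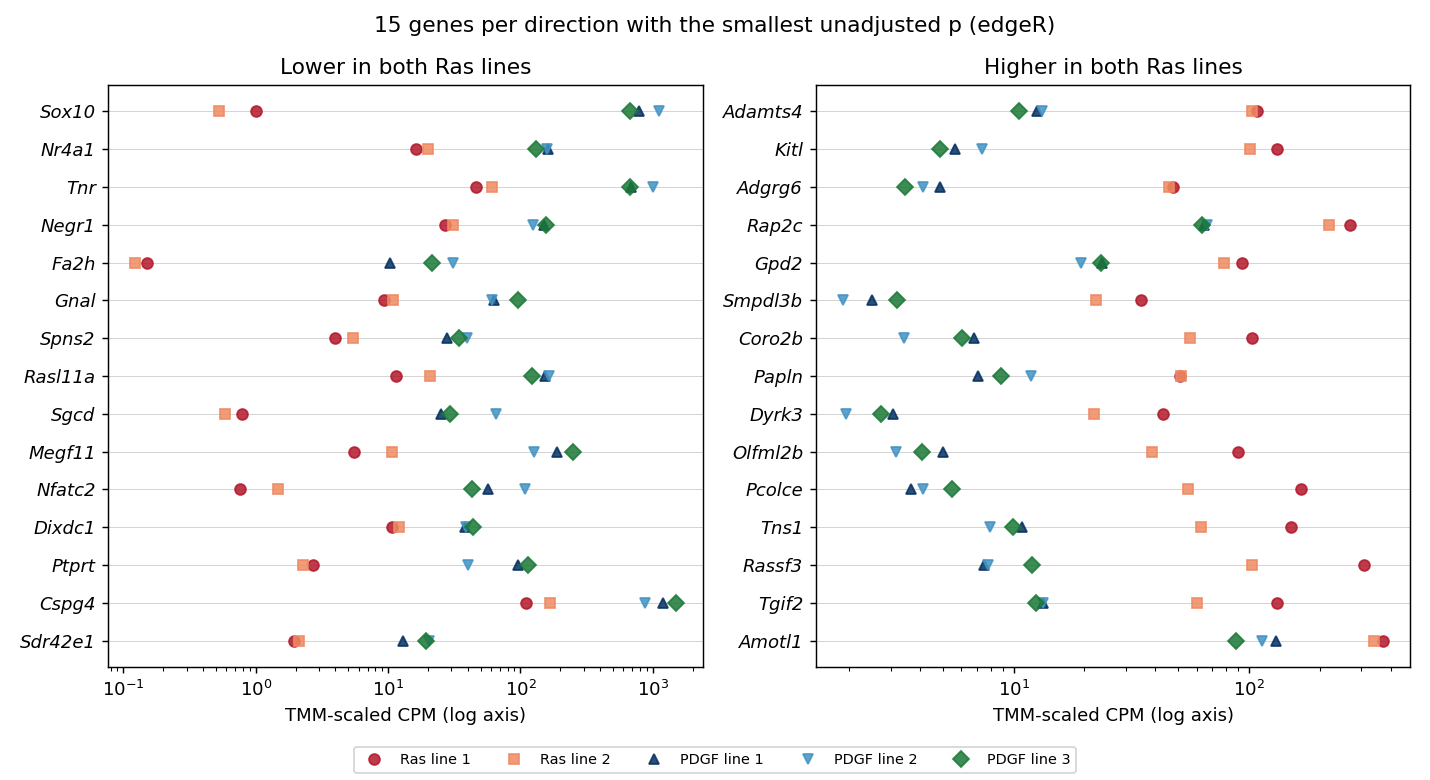
Levels in each line of the 15 genes per direction with the smallest unadjusted p among genes whose groups did not overlap, as TMM-scaled CPM on a log axis, 1 marker per line. By that choice both Ras lines lie on 1 side of all 3 PDGF lines in each gene. For Sox10 they lie near 1 CPM against 670 to 1123 CPM.

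The 2 Ras lines left the PDGF lines to different extents. Of 11390 genes with a mean log2 CPM of at least 3, Ras line 1 lay more than 4-fold from the mean of the PDGF lines in 1699 (14.9%) and Ras line 2 in 615 (5.40%). Both did so in the same direction in 177 genes upward and 255 downward, and in opposite directions in 40. A PDGF line lay that far from the mean of the other 2 in 194, 423 and 146 genes. The 2 Ras lines were then ranked against each other only in genes where both lay on the same side of all PDGF lines. That choice leaves out genes in which a PDGF line lay between the 2 Ras lines. The genes in which Ras line 1 most exceeded Ras line 2 included Slco2a1, a prostaglandin transporter, at 253 and 2.49 against 0.173, 0.0606 and 0.118 CPM, Ass1, an enzyme of arginine synthesis, at 278 and 3.04 against 0.750, 0.0606 and 0.889 CPM, and Crabp1, which binds retinoic acid, at 186 and 1.17 against 0.115, 0.273 and 0.178 CPM. Ifitm3, an interferon-inducible membrane protein, was at 315 and 1.81 against 0.115, 0.0606 and 1.16 CPM. In all 4 genes Ras line 2 lay far nearer to the PDGF lines than to Ras line 1. Within that choice, the genes in which Ras line 2 most exceeded Ras line 1 included genes that the PDGF lines also expressed. Susd4 stood at 1.09 and 83.6 against 136, 114 and 143 CPM, Sema5b, a guidance molecule, at 0.543 and 44.1 against 104, 75.7 and 91.4 CPM, and Nrxn3, a synaptic adhesion molecule, at 0.241 and 20.0 against 21.9, 56.3 and 43.5 CPM. Egfr, the receptor of the EGF in both media, lay outside that choice but split the Ras lines in the same sense, at 1.96 and 107 against 12.3, 0.667 and 10.7 CPM.

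**Figure D2:**
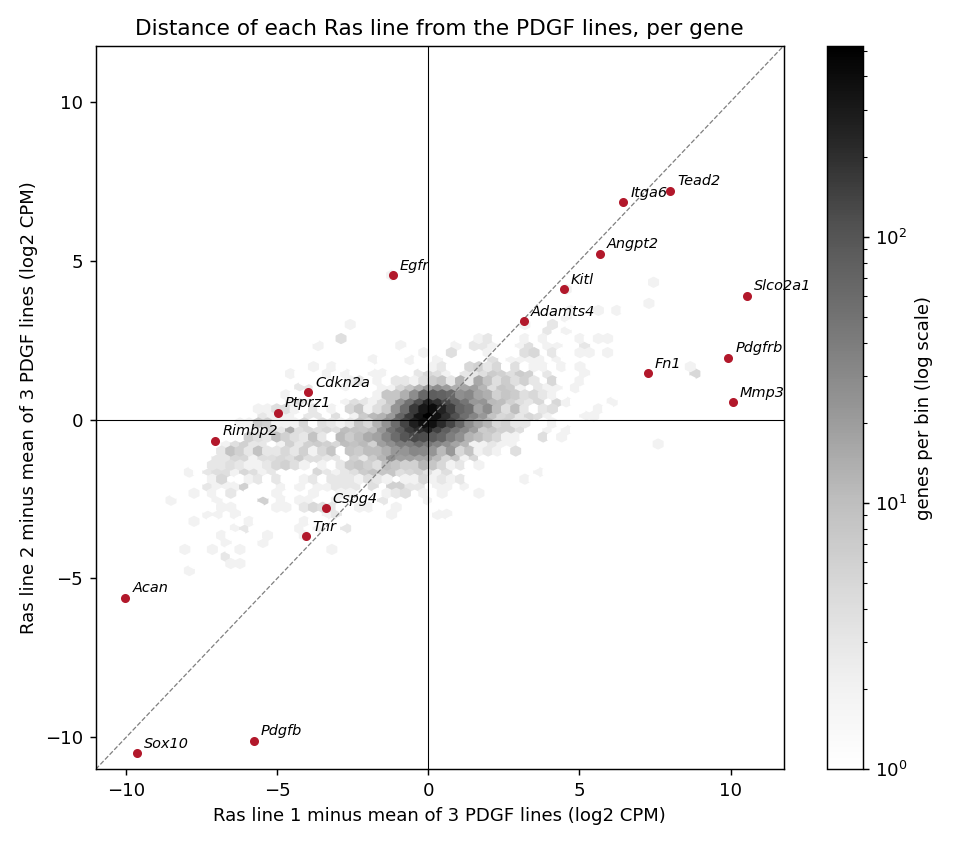
Each gene's log2 CPM in Ras line 1 (x axis) and Ras line 2 (y axis) minus the mean of the 3 PDGF lines; shading gives genes per bin on a log scale, and the dashed line marks equal differences. Sox10, Tnr, Kitl, Itga6 and Tead2 lie near the dashed line, while Pdgfrb, Fn1 and Mmp3 lie far out on the axis of Ras line 1 and Egfr on that of Ras line 2.

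All 9 oligodendrocyte precursor markers were lower in both Ras lines than in every PDGF line, against 20.6% of all genes. DESeq2 called 6 of them as lower, against 5.30% of all genes it tested. The median fold was -4.08, and the median difference from the PDGF mean was -6.67 in Ras line 1 and -4.06 in Ras line 2. Cspg4 stood at 109.8 and 168 against 1199.7, 871 and 1497 CPM (-3.10 (SE 0.37)), C1ql1, a secreted synaptic organiser, at 3.08 and 21.3 against 169, 179 and 271 CPM (-4.08 (SE 0.96)), and the receptor gene Gpr17 at 0.965 and 17.7 against 184, 362 and 389 CPM (-5.06 (SE 1.41)). Ras line 1 was the lower of the 2 Ras lines in C1ql1 and Gpr17 and Ras line 2 in Pdgfra. The ligand gene Bmp4, which newly committed oligodendrocytes express, stood at 0 and 0.0615 against 4.99, 10.2 and 14.0 CPM. In bulk RNA, fewer cells of a kind and less RNA per cell cannot be told apart. The label of the cells as brain tumour cells does not name a lineage. The 9 markers summed to 639 and 603 CPM in the Ras lines against 3603 to 4912 CPM in the PDGF lines, so their summed RNA was lower but not absent. In Ras line 1 most of the sum came from Pdgfra and Cspg4, while C1ql1, Gpr17 and Bmp4 reached at most 3.08 CPM.

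Genes of mature oligodendrocytes had the same direction: 6 of 7 tested were lower in both Ras lines, of 9 listed, against 20.6% of all genes, with a median of -3.49. Mbp, the myelin basic protein, stood at 0.754 and 4.43 against 87.8, 14.8 and 104 CPM (-4.73 (SE 1.32)). Myrf, the transcription factor that switches on myelin genes, stood at 2.08 and 3.66 against 25.2, 54.2 and 34.9 CPM (-3.73 (SE 0.53)), and Zfp488, another factor of the lineage, at 0.121 and 4.37 against 49.1, 48.0 and 30.7 CPM. Olig2, which acts upstream of Sox10, stood at 333 and 848 against 757, 599.6 and 844 CPM, and the stem cell factor Sox2 at 327 and 370.3 against 439, 285 and 376 CPM, both with overlapping groups. Of 12 tested factors of the lineage, 4 were lower and 1 higher in both Ras lines, against 20.6% and 17.9% of all genes. Neuronal genes had 5 of 11 lower, against the same 20.6%, and a median of -2.17. Gad1, which makes GABA, stood at 5.25 and 16.0 against 83.8, 109 and 108 CPM (-3.24 (SE 0.57)), and Tubb3, a neuronal tubulin, at 6.52 and 8.86 against 26.3, 74.0 and 77.6 CPM (-2.95 (SE 0.59)). Camk2a, a neuronal kinase, was the 1 neuron marker higher in both Ras lines, at 1.12 and 3.29 against 0.433, 0.212 and 0.948 CPM. Nefl, a neurofilament gene, stood at 28.5 and 0.584 against 0.346, 0.485 and 0.681 CPM, high in Ras line 1 alone.

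The chondroitin sulfate proteoglycans and link proteins of brain matrix were lower in both Ras lines in 10 of 12 genes, against 20.6% of all genes, and higher in 0. Their median fold was -1.98, -1.55 without Ras line 1 and -3.79 without Ras line 2. Brevican, Bcan, stood at 207 and 311 against 675, 1129 and 1075 CPM (-1.89 (SE 0.35)), and the glypican gene Gpc5 at 0.422 and 0.953 against 10.2, 4.76 and 18.1 CPM (-4.00 (SE 0.86)). Aggrecan, Acan, stood at 0 and 1.23 against 20.5, 485 and 24.4 CPM, with PDGF line 2 far above the other PDGF lines. Ptprz1, a receptor phosphatase proteoglycan, was low in Ras line 1 alone, at 47.6 and 1745 against 1649, 1237 and 1668 CPM. Bcan and Acan, whose proteins Adamts4 cleaves, had lower RNA levels in the lines where Adamts4 RNA was high. Cleavage was not measured, and a link between these levels was not tested.

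Basement membrane genes lay on the other side. Of 14 laminin, nidogen and fibronectin genes tested, 6 were higher and 0 lower in both Ras lines, against 17.9% and 20.6% of all genes. The median difference from the PDGF mean was 2.21 in Ras line 1 and 1.13 in Ras line 2. Among them the laminin chain genes Lamb1 and Lama5 stood at 484 and 151 against 3.69, 0.697 and 4.03 CPM (6.82 (SE 1.01)) and at 194 and 120.4 against 7.99, 32.4 and 8.80 CPM (3.26 (SE 0.74)). Both Ras lines lay above all PDGF lines for both genes, and PDGF line 2 was the highest PDGF line for Lama5. Their receptors had the same direction: 9 of 18 integrins and matrix receptors were higher in both Ras lines and 0 lower, with a median of 1.17. The laminin receptor chains Itga6 and Itga7 stood at 143 and 189 against 6.29, 0.242 and 2.25 CPM (5.82 (SE 1.28)) and 46.0 and 86.5 against 5.57, 10.5 and 11.6 CPM (2.85 (SE 0.46)). The fibronectin receptor chain Itga5 stood at 245 and 32.7 against 2.11, 1.21 and 4.53 CPM (5.73 (SE 1.09)), and the hyaluronan receptor Cd44 at 408 and 101 against 19.6, 16.3 and 14.96 CPM (3.91 (SE 0.62)).

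Collagens split by line. Of 17 tested, 4 were higher and 3 lower in both Ras lines, near the 17.9% and 20.6% of all genes. The median difference from the PDGF mean was 3.74 in Ras line 1 and -0.55 in Ras line 2, and the median fold of 2.72 turned to -0.87 without Ras line 1. The basement membrane chains Col4a5 and Col18a1 were higher in both, at 132 and 56.2 against 3.69, 3.70 and 7.997 CPM (4.199 (SE 0.58)) and 1624 and 174 against 11.9, 2.94 and 20.9 CPM (6.23 (SE 1.34)). The cartilage-type chains Col9a1 and Col11a2 were lower in both, at 0.362 and 1.91 against 69.9, 224 and 27.6 CPM (-6.56 (SE 1.47)) and 1.21 and 2.28 against 8.92, 735 and 44.9 CPM (-7.24 (SE 2.47)). Col11a2 is not a member of the list. Fibronectin, Fn1, and the fibrillar chain Col5a1 were mainly high in Ras line 1, at 3904 and 70.4 against 24.6, 16.5 and 41.8 CPM and 585 and 55.0 against 28.3, 9.88 and 22.8 CPM. The 10 fibroblast markers summed to 325 CPM in Ras line 1 and 17.1 to 26.3 CPM in the other lines, mostly from Pdgfrb, Pdpn and S100a4. The defining fibroblast genes Dcn, Lum and Fap reached at most 0.424 CPM in any line. Of 7 fibroblast markers tested, 2 were higher in both Ras lines, and their median turned from 3.16 to -0.23 without Ras line 1.

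Of 20 matrix proteases and inhibitors, 7 were higher and 3 lower in both Ras lines, against 17.9% and 20.6% of all genes. Plaur, the urokinase receptor, stood at 57.2 and 6.95 against 0.981, 0.151 and 1.13 CPM (5.41 (SE 1.27)), and the protease inhibitor gene Timp1 at 93.3 and 23.7 against 1.59, 0.182 and 4.98 CPM (4.70 (SE 1.39)). In both, Ras line 1 was several times above Ras line 2. Mmp17, a membrane-anchored protease, was lower in both Ras lines, at 5.52 and 18.3 against 49.3, 82.6 and 82.3 CPM (-2.59 (SE 0.63)). The median of the list was 2.42 in Ras line 1 and 0.74 in Ras line 2. Of the 13 members with at least 1 CPM in every line, 2 were higher and 3 lower in both Ras lines, and their median fold was 0.11 against 1.904 for all 20.

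Transcription factors linked to the mesenchymal state were higher in both Ras lines in 6 of 16 tested and lower in 1, against 17.9% and 20.6% of all genes. The median fold was 1.44, and 0.33 without Ras line 1. Prrx1, a factor of mesenchyme, stood at 946 and 220.1 against 78.3, 101 and 85.1 CPM (2.73 (SE 0.62)) and Tead1, the DNA-binding partner of YAP, at 715 and 202 against 83.2, 43.8 and 68.1 CPM (2.82 (SE 0.61)). Twist1, a factor that drives mesenchymal transition, stood at 38.3 and 7.60 against 0, 0.212 and 0 CPM, with PDGF lines at or near 0. In TGF-beta and BMP genes, 2 of 17 were higher and 2 lower in both Ras lines, shares below those of all genes. Their median of 1.64 was -0.05 without Ras line 1. Tgfbr2, the TGF-beta type II receptor, stood at 174 and 27.6 against 1.5, 16.4 and 2.37 CPM (3.90 (SE 1.37)), while Bmp7, a ligand, stood at 181 and 104 against 418, 519 and 404 CPM (-1.65 (SE 0.32)).

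Outputs of the ERK cascade were uneven. Of 19 feedback and target genes tested, 7 were higher and 2 lower in both Ras lines, against 17.9% and 20.6% of all genes, with a median of 0.53. Without Ras line 1 the median was 0.07. The ERK phosphatase gene Dusp4 stood at 313 and 46.7 against 7.16, 8.51 and 11.3 CPM (4.33 (SE 0.84)), Dusp5 at 14.4 and 10.2 against 4.50, 2.55 and 5.18 CPM (1.59 (SE 0.45)), and the ephrin receptor gene Epha2 at 33.5 and 9.96 against 0.433, 0.909 and 0.592 CPM (5.07 (SE 0.71)). The factor Fosl1 stood at 76.4 and 6.52 against 3.52, 4.79 and 3.94 CPM (3.34 (SE 1.00)). The immediate-early factor Egr1 was lower in both Ras lines, at 53.3 and 134 against 1035, 529 and 867 CPM (-3.11 (SE 0.57)), as was Nr4a1 above. Spry1, Spry4 and Ccnd1, also outputs of the cascade, had overlapping groups, and Ccnd1 stood at 1537 and 1863 against 2036, 1685 and 1599 CPM.

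The ligands of the EGF receptor differed in direction. Of 13 genes, 4 were higher and 6 lower in both Ras lines, against 17.9% and 20.6% of all genes. Hbegf, heparin-binding EGF, stood at 219.6 and 68.2 against 22.6, 11 and 27.2 CPM (2.83 (SE 0.64)), Areg, amphiregulin, at 17.9 and 9.44 against 1.82, 0.121 and 0.326 CPM (4.17 (SE 1.22)) and Ereg, epiregulin, at 13.4 and 5.50 against 0.115, 0 and 0.0592 CPM. The PDGF lines had more Tgfa, transforming growth factor alpha, at 16.1 and 40.0 against 159.96, 356 and 164 CPM (-3.01 (SE 0.64)). All 4 genes encode ligands of EGFR, and their groups did not overlap.

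Of the Notch receptors, Notch1, Notch2 and Notch3 were higher in both Ras lines. Notch1 stood at 509 and 312 against 220.2, 207 and 246 CPM (0.87 (SE 0.26)), Notch2 at 115 and 36.6 against 18.1, 11.7 and 10.1 CPM (2.51 (SE 0.56)) and Notch3 at 45.3 and 69.5 against 9.64, 1.27 and 14.2 CPM (2.77 (SE 0.96)). The ligand Jag2 was lower at 0.513 and 2.92 against 9.26, 13.7 and 17.5 CPM (-2.97 (SE 0.89)). Over 15 tested genes of the pathway, 4 were higher and 2 lower, against 17.9% and 20.6% of all genes. The median of -0.71 turned to 0.26 without PDGF line 2. Neural stem genes had 2 of 16 higher and 0 lower, a share below that of all genes. Prom1, the stem cell antigen CD133, stood at 17.8 and 25.4 against 6.81, 0.939 and 5.36 CPM (2.30 (SE 0.84)), and Nes, nestin, at 147 and 499 against 239, 130.3 and 185 CPM. Among 13 tested patterning genes of forebrain and midbrain, 4 were higher and 2 lower, against 17.9% and 20.6% of all genes. The forebrain factor Emx2 stood at 35.4 and 19.8 against 15.6, 9.76 and 3.82 CPM (1.504 (SE 0.65)), and Gsx1, a factor of the ventral forebrain, at 0.0905 and 2.98 against 53.1, 7.45 and 76.1 CPM (-4.89 (SE 1.83)). Only 6 of 18 HOX genes passed the filter, all from the Hoxa cluster, and Hoxa5 stood at 60.6 and 48.0 against 15.3, 25.3 and 20.4 CPM (1.41 (SE 0.29)) and Hoxa3 at 49.0 and 47.2 against 18.6, 19.4 and 30.0 CPM (1.09 (SE 0.28)). The spans of Hoxa3 and Hoxa5 overlap. Astrocyte markers split, with 3 of 9 higher and 1 lower, against 17.9% and 20.6% of all genes. Gja1, the astrocyte connexin, stood at 189 and 14.4 against 1.56, 0 and 0.770 CPM, S100b at 6.61 and 15.8 against 31.3, 610.0 and 63.4 CPM (-4.39 (SE 1.66)), and Gfap, the standard astrocyte filament, at 0.815 and 1.05 against 2.63, 0.545 and 5.36 CPM, near 0 in every line.

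Signals to myeloid cells differed between the 2 Ras lines. Of 5 tested myeloid growth factors, 2 were higher in both Ras lines, against 17.9% of all genes. The median was 3.06 in Ras line 1 and 0.56 in Ras line 2. Csf1 and Il34, the ligands of the receptor CSF1R, stood at 148 and 31.4 against 21.4, 14.3 and 31.6 CPM and 29.5 and 2.89 against 1.24, 2.70 and 0.681 CPM. For Csf1 Ras line 2 overlapped the PDGF lines, and for Il34 it exceeded PDGF line 2 only slightly. Chemokines had 3 of 12 tested higher and 2 lower, of 19 listed, against 17.9% and 20.6% of all genes. Their median difference was 0.65 in Ras line 1 and 0.84 in Ras line 2. Of the 3 with at least 1 CPM in every line, 0 were higher and 2 lower. Cxcl10, which attracts T cells, stood at 3.26 and 10.7 against 0.115, 0 and 0.592 CPM (4.86 (SE 1.58)), Ccl5 at 1.03 and 0.922 against 0.173, 0.182 and 0.178 CPM (2.43 (SE 0.50)) and Cxcl14 at 37.3 and 34.5 against 53.5, 49.2 and 58.4 CPM (-0.58 (SE 0.18)). Cx3cl1, the ligand of a microglial receptor, was high in Ras line 1 alone, at 603 and 51.9 against 53, 18.0 and 86.1 CPM. Among 13 tested inflammatory genes, 5 were higher and 0 lower in both Ras lines, against 17.9% and 20.6% of all genes. The median of 0.29 was -0.29 without Ras line 1. Of the 7 with at least 1 CPM in every line, 1 was higher. Nfkb2 stood at 60.4 and 17.1 against 6.66, 11.7 and 9.36 CPM (2.07 (SE 0.60)), the cytokine gene Lif at 4.50 and 2.80 against 1.04, 0.182 and 0.563 CPM (2.61 (SE 0.82)) and Ptgs2, the inducible prostaglandin synthase, at 8.90 and 2.74 against 0.289, 0.121 and 1.10 CPM (3.53 (SE 1.11)). Il1b, Il6 and Tnf reached at most 0.178 CPM in any line. Without PDGF line 3, which held the macrophage transcripts, the chemokine median went from 0.52 to 1.28 (11 tested) and the inflammatory median from 0.29 to 1.07 (12 tested). What part those transcripts had in these levels was not tested.

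Angiogenic and IGF genes included further genes with non-overlapping groups beside Angpt2. Nrp1, a co-receptor of VEGF, stood at 193 and 30.4 against 13.7, 4.70 and 21.6 CPM (3.07 (SE 0.98)). Of 11 tested VEGF and angiopoietin genes, 2 were higher and 0 lower in both Ras lines, against 17.9% and 20.6% of all genes. The share that was higher was thus close to that of all genes. Of 11 IGF genes, 2 were higher and 2 lower, close to the shares of all genes. Igfbp3 and Igfbp5, which bind IGF outside the cell, had opposite directions, at 1133 and 1319 against 588, 189 and 259.8 CPM (1.83 (SE 0.52)) and 18.5 and 23.03 against 159, 314 and 92.6 CPM (-3.18 (SE 0.62)).

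Interferon-stimulated genes were higher in both Ras lines in 10 of 20 tested, against 17.9% of all genes, and lower in 0. DESeq2 called 10 as higher, against 5.28% of all genes it tested. The median difference from the PDGF mean was 3.52 in Ras line 1 and 1.27 in Ras line 2. Without Ras line 1 the median fold went from 2.39 to 1.12. Of the 7 members with at least 1 CPM in every line, 0 were higher in both Ras lines and the median was 0.43, so each of the 10 was below 1 CPM in at least 1 line. Interferons act through transcription factors that bind a GAAA-rich element in the promoters of such genes. The stretches of 160 bases before the RefSeq start (GRCm38.p6) of 3 genes that were higher in both Ras lines and of Ifit3, whose groups overlapped, are shown because they hold this element. Capitals mark GAAANNGAAA on either strand.
Isg15 (chr4:156200819-156200978, minus strand): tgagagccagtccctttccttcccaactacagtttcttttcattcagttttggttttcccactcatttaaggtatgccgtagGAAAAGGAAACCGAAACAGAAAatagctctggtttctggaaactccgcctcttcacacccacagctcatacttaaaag
Bst2 (chr8:71537473-71537632, minus strand): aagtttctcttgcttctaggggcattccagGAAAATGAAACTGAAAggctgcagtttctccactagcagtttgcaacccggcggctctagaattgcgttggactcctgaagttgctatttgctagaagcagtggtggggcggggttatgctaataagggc
Ifit1 (chr19:34640729-34640888, plus strand): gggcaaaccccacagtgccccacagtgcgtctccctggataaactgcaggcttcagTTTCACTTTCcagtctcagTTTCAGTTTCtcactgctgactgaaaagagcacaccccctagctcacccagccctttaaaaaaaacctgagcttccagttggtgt
Ifit3 (chr19:34583369-34583528, plus strand): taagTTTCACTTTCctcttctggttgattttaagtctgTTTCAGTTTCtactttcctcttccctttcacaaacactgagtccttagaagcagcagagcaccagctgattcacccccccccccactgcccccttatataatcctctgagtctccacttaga

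The element was present in 3.44% of 32851 RefSeq promoter windows (250 bases before to 50 after the start; both strands; overlapping matches counted as 1 window). Of the 22 listed genes 17 had a window, and 10 of these held a match. Among the genes higher in both Ras lines 4 of 9 with a window held it, and among the rest of the list 6 of 8. That rest includes Oas1a and Oas3, which held a match but did not pass the filter on low counts. These shares therefore do not decide whether the match separated the genes. Isg15, an ubiquitin-like modifier with 3 overlapping matches, stood at 24.9 and 1.84 against 0.231, 0.697 and 0.504 CPM (4.80 (SE 1.22)). Bst2, tetherin, which holds virus particles at the cell surface, stood at 75.9 and 3.54 against 0.750, 0.0606 and 1.16 CPM (5.91 (SE 1.69)), and Ifit1, an RNA-binding inhibitor of translation, at 17.5 and 8.58 against 0.433, 3.36 and 2.04 CPM (2.74 (SE 0.91)). Ifit3, a relative of Ifit1 with 2 matches, stood at 13.2 and 2.12 against 1.24, 18.1 and 3.52 CPM, and its PDGF line 2 lay above both Ras lines. Oasl2, Oasl1 and Ifi44 stood at 41.5 and 6.67 against 0.577, 0.424 and 0.592 CPM (5.49 (SE 0.89)), 4.53 and 2.95 against 0.0866, 0.545 and 0.118 CPM (3.89 (SE 0.95)) and 17.5 and 2.86 against 0.0289, 0.333 and 0.178 CPM (5.80 (SE 1.27)). Ifih1, the RNA sensor MDA5, stood at 10.98 and 4.40 against 0.577, 0.576 and 1.24 CPM (3.26 (SE 0.67)). The Ifit and Oas families hold near-identical copies, and how reads shared between copies were counted is not given in the sources used here.

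Genes of MHC class I presentation were mostly high in Ras line 1 alone. Of 12, 2 were higher in both Ras lines, a share close to that of all genes. The median difference from the PDGF mean was 2.85 in Ras line 1 and -0.36 in Ras line 2, and the median fold of 1.87 turned to -0.66 without Ras line 1. B2m, the constant light chain, stood at 739 and 114 against 70.5, 72.3 and 163 CPM, H2-K1 at 387 and 42.6 against 41.0, 10.3 and 40.6 CPM, and Nlrc5, the factor that activates these genes, at 37.4 and 0.953 against 0.289, 0.121 and 0.533 CPM. Ras line 2 lay within the range of the PDGF lines for B2m and just above it for the other 2 genes. The H2 genes also share sequence, so their counts are uncertain.

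**Figure D3:**
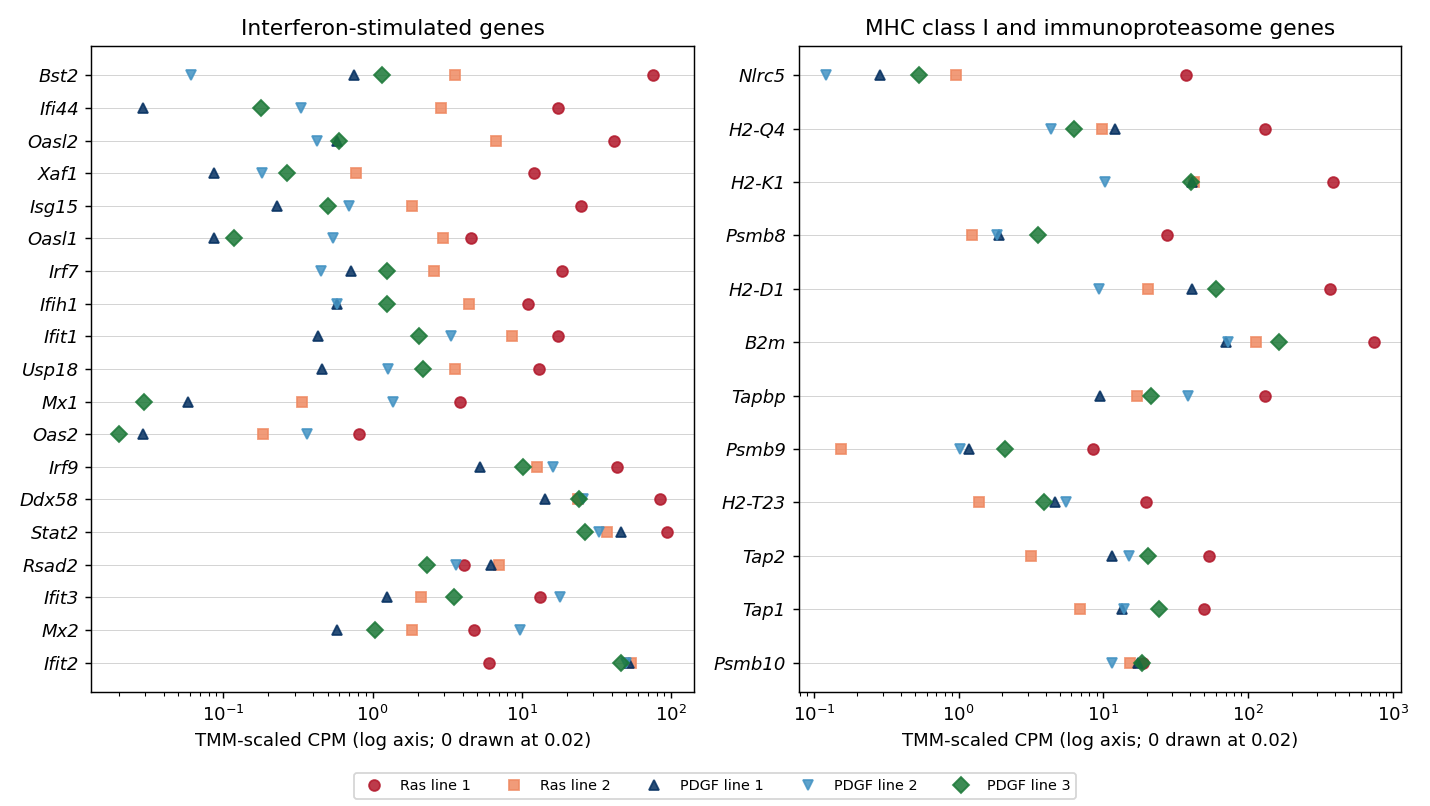
Levels in each line of most of the tested interferon-stimulated genes (left) and MHC class I genes (right), as TMM-scaled CPM on a log axis, with a level of 0 drawn at 0.02. In the upper 10 genes on the left both Ras lines lie to the right of all PDGF lines, while on the right Ras line 1 is the highest line in nearly every gene and Ras line 2 lies much nearer to the PDGF lines.

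Cell division, p53 and cell cycle entry genes differed in how many members separated the groups. Of 20 cell division genes, 1 was higher and 0 lower in both Ras lines, far below the shares of all genes. The 2 Ras lines went opposite ways, with a median difference from the PDGF mean of -0.28 in Ras line 1 and 0.55 in Ras line 2. Mki67 stood at 374 and 677 against 745, 297 and 643 CPM. Ras line 2 and PDGF lines 1 and 3 were the high lines for Mki67. Of 18 p53 target genes, 7 were higher and 0 lower, against 17.9% and 20.6% of all genes, with a median of 0.27, and DESeq2 called 0. Without Ras line 2 that median was -0.02. Mdm2, which degrades p53, stood at 164 and 104 against 77.4, 88.7 and 61.6 CPM (0.82 (SE 0.28)), and Ccng1 at 256 and 369.9 against 219.9, 143 and 183 CPM (0.78 (SE 0.28)). Of 12 cyclin D and INK4 genes, 4 were higher and 1 lower. The kinase gene Cdk6 stood at 17.3 and 18.9 against 1.99, 0.364 and 1.10 CPM (3.97 (SE 0.76)) and its partner Ccnd3 at 67.9 and 125 against 221, 198 and 179 CPM (-1.05 (SE 0.32)). Cdkn2a, which encodes p16 and p19ARF, was low in Ras line 1 alone, at 7.81 and 225 against 155, 97.7 and 127 CPM.

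Cholesterol synthesis genes had 4 of 17 higher and 0 lower in both Ras lines, against 17.9% and 20.6% of all genes, with a median of 0.30. Glycolysis and hypoxia genes had 1 of 19 higher, and their median difference was 1.21 in Ras line 1 and -0.54 in Ras line 2. Car9, a carbonic anhydrase induced by hypoxia, stood at 281 and 0.215 against 0.635, 12.5 and 5.72 CPM. Among 16 genes of amino acid and serine synthesis, 1 was higher and 1 lower. The cystine transporter gene Slc7a11 stood at 55.7 and 15.6 against 10.0, 7.76 and 4.92 CPM (2.23 (SE 0.63)) and the proline synthesis gene Pycr1 at 12.8 and 17.8 against 46.7, 39.2 and 28.0 CPM (-1.31 (SE 0.33)).

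Markers of other cell types were sparse. Endothelial genes had 0 higher and 0 lower of 5 tested, of 10 listed, and Cdh5 and Cldn5 reached at most 0.121 CPM. Pericyte markers had 2 of 6 tested higher and 1 lower, against 17.9% and 20.6% of all genes, with Rgs5 at 11.01 and 1.29 against 0.692, 0.364 and 0.296 CPM. The 9 listed summed to 60.8 and 74.0 against 14.3, 8.45 and 24.7 CPM, and Notch3, given above, was the larger part of the sum in both Ras lines. Only Lck of the T cell markers and Alas2 of the erythroid markers passed the filter, at most 2.72 and 0.364 CPM. Of the macrophage markers 3 of 12 passed, 0 higher and 0 lower in both Ras lines.

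**Figure D4:**
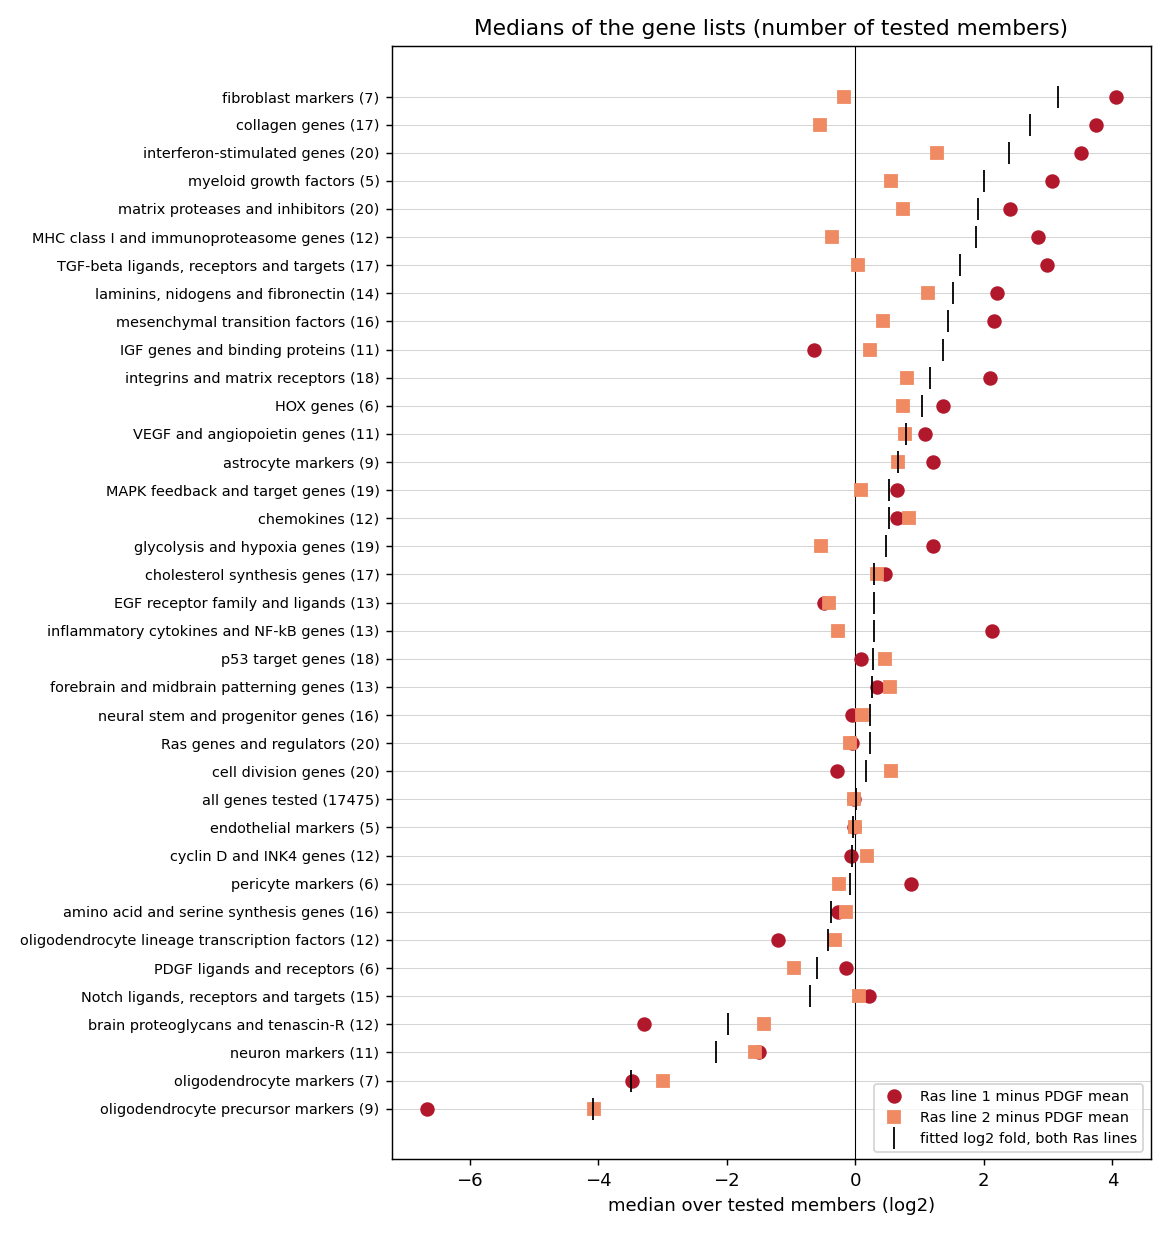
Median over the tested members (number in brackets) of each gene list with at least 5: difference from the PDGF mean for Ras line 1 (circles) and Ras line 2 (squares), and the fitted log2 fold (vertical ticks). Precursor, oligodendrocyte, neuron and proteoglycan lists lie left of 0 for both Ras lines, the laminin, integrin and interferon lists lie right of 0 for both, and the collagen, MHC class I and fibroblast lists lie right of 0 for Ras line 1 only.

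The largest shifts of whole chromosomes were those of single lines. Against the median of the other 4 lines, the median gene of chromosome 10 was 0.50 higher on the log2 scale in Ras line 1 (503 genes), that of chromosome 15 was 0.46 higher in PDGF line 2 and 0.32 higher in Ras line 1 (387 genes), and that of chromosome 1 was 0.36 higher in Ras line 2 (556 genes). On chromosome 11 the largest shift was 0.16, in PDGF line 1. Kitl and Adgrg6 lie on chromosome 10, Adamts4 on chromosome 1 and Sox10 on chromosome 15. Copy number was not measured here, and what part these shifts had in the levels of those genes was not tested.

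**Figure D5:**
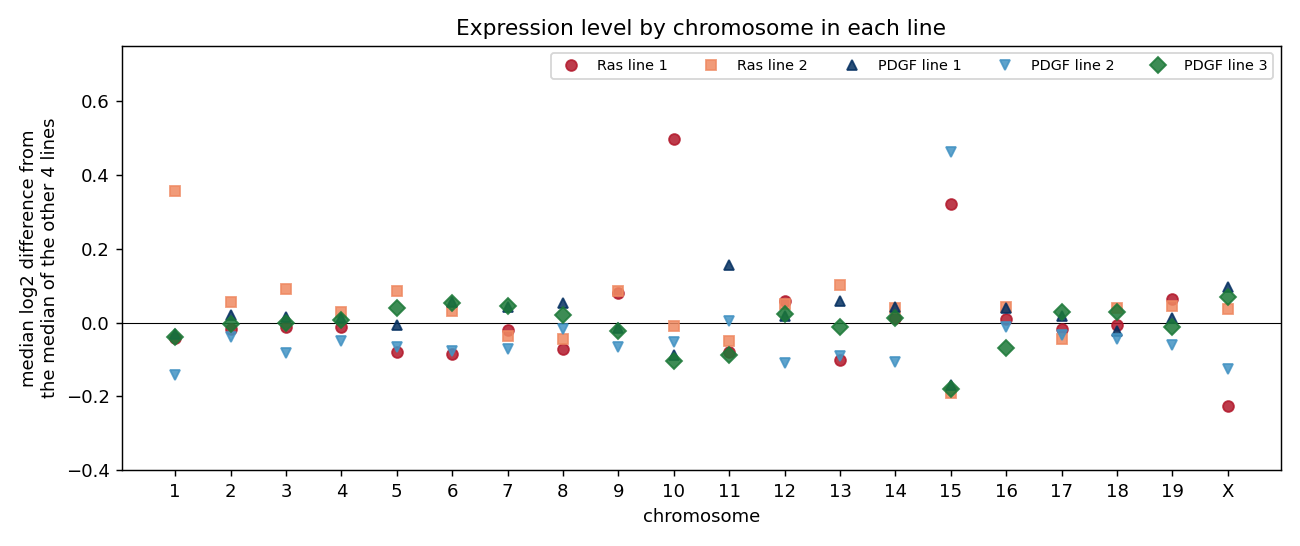
Median log2 difference of each line from the median of the other 4 lines, per chromosome, over genes with a mean log2 CPM of at least 4. Most points lie close to 0, and Ras line 1 on chromosome 10, Ras line 2 on chromosome 1, and Ras line 1 and PDGF line 2 on chromosome 15 stand above the rest.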

How the data were processed

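Raw read counts per gene symbol, with no normalization, are the deposited values. Per the submitters' processing notes the tools included STAR 2.6.1e, featureCounts 1.6.2, cutadapt 1.9.1, Trim Galore 0.4.2 and FastQC 0.11.7, with the build GRCm38; their settings are not given in the sources used here. Of 10 columns in the table, 5 matched no sample and were not used. The 27 entries whose names had turned into dates, 0.302 to 0.360% of a library, were left out. Of counts between 1 and 10, 64.4 to 67.0% were even numbers, a surplus that lowers the precision a count implies.

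The 2 Ras and 3 PDGF lines were fitted alone with the quasi-likelihood test of edgeR 4.0.16 in R 4.3.3 (TMM scaling, default filter on low counts, robust estimation, 3 residual degrees of freedom), with Benjamini-Hochberg adjustment over 17475 genes and a threshold of 0.05. An exact permutation test of 2 lines against 3 has 10 arrangements and cannot go below a two-sided p of 0.2, so none was run. Log2 CPM used a prior count of 2. The floor for a level of 0 was 3 counts per library and covers counting error only. Positions are those of GENCODE M21 and promoters those of RefSeq. The script was tested on simulated counts.

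Lines were compared, and 39 gene lists described, with results of these data already known, so lists are no independent evidence; 3 further lists were chosen after their values were seen. The genes named were the 15 with the smallest p per direction, the 10 with the largest fold per direction whose Ras lines were within 2-fold, the 10 with the largest ratio between the Ras lines each way, up to 4 per list with the smallest p, and 15 fixed names. The first 3 parts needed a mean log2 CPM of at least 3 and both Ras lines above or both below all PDGF lines. Acan, Ptprz1, Ccnd1, Spry1, Spry4, Nras, Bst2, Ifit1, Ifit3, Isg15, Mmp3, Mcph1, Camk2a, the marker and cytokine genes given at their highest level, the sex markers and the genes of the closing section were named after their values were seen. Some genes that this rule names are not reported here. Alternatives were other scalings, filters, tools and fits without each line.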

Additional observations from a re-analysis of the deposited data

How the results depend on the processing

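No count of called genes rests on a stable test: with 2 lines against 3, edgeR called 0 genes under either other scaling, without robust estimation, with at least 1 CPM in every line and with limma-voom, whereas DESeq2 called 2047 and edgeR without a filter 1, Sox10 (adjusted p 0.0359). Without each line in turn edgeR called 0 to 2111, the latter without Ras line 2. Genes with both Ras lines above all PDGF lines numbered 3483 to 6669 when a line was left out, and those below 3918 to 7171, since fewer lines have to be separated; with at least 1 CPM in every line 2371 were below, of 12422 tested. With sex as a covariate, added after seeing the data, edgeR called 0. The replicate block called 0 genes, with 1110 at an unadjusted p under 0.05 against 2842 without it; the numbers are only names, and same-numbered lines deviated with r of -0.18 and -0.11. Of 88 genes given with a fold, none changed sign under any alternative run, and 77 were called by DESeq2. Most of these genes had groups that did not overlap, so leaving out a line could hardly change their sign. Over the larger set of 209 named genes, 187 kept their sign under every alternative and DESeq2 called 127. Of 39 list medians, 20 kept their sign whichever line was left out. Requiring 1 CPM in every line turned the medians of the PDGF (0.14), EGF receptor (-0.54), chemokine (-0.61), inflammatory (-0.16), endothelial (0.72) and pericyte (1.25) lists, for which fewer members were then tested, and lowered that of the interferon list to 0.43 and of the protease list to 0.11.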

Other observations

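The Hippo pathway restrains the co-activators YAP and TAZ, which bind TEAD factors on DNA. The gene list for it was drawn up after Tead2 and Yap1 had been seen among the largest folds, so it is a description. Of 22 genes, 12 were higher in both Ras lines and 1 lower, against 17.9% and 20.6% of all genes. The median difference from the PDGF mean was 1.69 in Ras line 1 and 0.39 in Ras line 2. Yap1 stood at 178 and 96.4 against 3.58, 19 and 6.72 CPM (3.81 (SE 0.80)), and Wwtr1, which encodes TAZ, at 712 and 129.7 against 21.7, 26.1 and 16.7 CPM (4.29 (SE 0.76)). Tead2 stood at 187 and 106 against 1.79, 0.0606 and 1.66 CPM (6.96 (SE 1.28)). Ajuba, a scaffold protein that binds LATS kinases, stood at 27.2 and 6.30 against 0.289, 0.242 and 0.592 CPM (5.47 (SE 0.87)), and Amotl1, which can hold YAP in the cytoplasm, at 373 and 342 against 131, 114 and 87.8 CPM (1.69 (SE 0.22)). Of the known YAP target genes, Cyr61 stood at 47.6 and 10.4 against 10.2, 32.7 and 20.3 CPM, Ctgf at 6.52 and 0.615 against 0.173, 0.0606 and 0.829 CPM and Amotl2 at 10.9 and 25.2 against 62.7, 65.3 and 69.3 CPM (-1.86 (SE 0.41)). The first 2 overlapped between the groups, and Amotl2 was lower in both Ras lines.

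Genes beside Cdkn2a were also looked at after its values had been seen. Cdkn2b, the next INK4 gene, stood at 0.965 and 47.1 against 33.8, 19.8 and 27.3 CPM, low in Ras line 1 like Cdkn2a. Mtap, on the far side of Cdkn2a, was highest in Ras line 1, at 864 and 138 against 81.5, 99.4 and 69.3 CPM (2.59 (SE 0.76)). In the more distant genes of the list, Ras line 1 was not the lowest for Klhl9, at 170.3 and 137 against 125, 167 and 175 CPM, and was the lowest for Elavl2, at 7.18 and 35.1 against 27.4, 12.8 and 19.3 CPM.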
